A study of Rattus norvegicus with 10 samples.

Results

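Of 1615896 productive immunoglobulin heavy chain reads from the spleens of 10 rats, 144766 (8.96%) encoded a variable domain with at least 1 N-glycosylation sequon. These reads were chosen by sequence alone: the domain, read without its alignment gaps, had to hold asparagine (N), then any residue but proline (P), then serine (S) or threonine (T). The 149145 sequons fell on 1768 sites, where a site is an IGHV gene, a segment (FR1 to FR4 or CDR1 to CDR3) and the column of the N in that segment as gapped in the annotation. A site found in 50% or more of the reads of its gene was called gene-typical and all other sites acquired. Both words describe frequencies among these reads, since no germline sequence was used.

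All animals were Wistar rats, primed once in complete Freund's adjuvant and boosted 3 times in the incomplete form. In the HuD group (n = 5) the immunogen was recombinant human HuD, a neuronal RNA-binding protein, and in the DNP group (n = 5) it was keyhole limpet hemocyanin carrying dinitrophenyl residues. No unimmunized animal was analysed here, so every comparison is between antigens or between reads of the same animal. Each animal gave 1 library from total splenocyte RNA, primed in the heavy chain constant domain. A read is 1 sequence that the authors collapsed by its molecular tag, and the files hold 156272 to 224573 productive reads per HuD animal and 60647 to 259834 per DNP animal. As the libraries hold heavy chain transcripts only, the splenocyte label could not be checked against markers of cell type.

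N-linked glycans are attached in the endoplasmic reticulum to the asparagine of this tripeptide, with threonine at its end usually used more efficiently than serine and a proline in or just after the motif hindering the transfer. Antibody heavy chains carry a conserved glycan in the constant domain, whereas sequons in the variable domain come from few germline V genes or arise by somatic hypermutation and at the V-D-J junction. Glycans on the variable domain can alter antigen binding and the stability of the antibody. A sequon in a transcript shows where a glycan could be attached and not that it was.

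The sequences below show the sequons to which the results refer, each as the most frequent stretch of reads with it, with the tripeptide in capitals and, for an acquired site, the gene's consensus. The consensus is the most frequent residue in each column of the productive reads of the gene.
IGHV4-2 FR3 column 1, the gene-typical site: dsstiNYTpslkd
IGHV3-1 CDR2 column 2: wigyiNYSgstgy
IGHV3-1 consensus there: wighiSYSgstsy
IGHV5-31 CDR2 column 3: vasitNASggthy
IGHV5-31 consensus there: vasitNTGgstyy
IGHV5-7 CDR2 column 4: atisyNGSstyyr
IGHV5-7 consensus there: atisyDGSstyyr
IGHV2-1 FR3 column 3: gstdyNSTlksrl
IGHV2-1 consensus there: gstdyNSAlksrl
IGHV5-25 FR3 column 19: srdnaNSTlylqm
IGHV5-25 consensus there: srdnaKSTlylqm
The exchange that completes the motif is in the N itself at the CDR2 site of IGHV3-1 and in the S at that of IGHV5-31. The printed stretches of both sites also differ from the consensus at other residues. The sites of IGHV5-7 and IGHV5-25 gained an N before a residue pair that the consensus already holds, and that of IGHV2-1 gained a T after an N that the consensus already holds.

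The productive reads with any sequon made up 8.38, 8.13, 8.08, 5.40 and 13.8% of the library in HuD1 to HuD5, against 8.47, 10.4, 5.21, 8.90 and 11.3% in DNP1 to DNP5. The highest value belonged to HuD5 and the lowest to DNP3, and the groups overlapped over most of their range. The means were 8.75 ± 3.06% in HuD animals and 8.85 ± 2.33% in DNP animals (SD, n = 5 each), a difference of -0.0968 percentage points (two-sided exact permutation test over all choices of 5 of the 10 animals, p = 0.921). Most of these reads (97.0%) held 1 sequon, 4168 held 2 and 105 held 3 or more, up to 4. Single shares have narrow intervals at this depth, for instance 5.03 to 5.39% in the smallest library, DNP3 (95% Wilson interval, counting error only).

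Acquired sequons were found in 121379 reads, which is 83.8% of the reads with a sequon. Their share of productive reads was 6.15, 6.41, 7.54, 4.69 and 13.2% in HuD1 to HuD5, against 7.99, 7.55, 4.41, 7.48 and 6.57% in DNP1 to DNP5. HuD5 stood above all other animals and the other 9 lay between 4.41 and 7.99%. The group means of 7.60 ± 3.30% in HuD animals and 6.80 ± 1.43% in DNP animals (SD, n = 5 each) did not differ beyond the spread between animals (exact permutation test, p = 0.762). Without HuD5 the difference of 0.801 percentage points turned to -0.605.

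**Figure D1:**
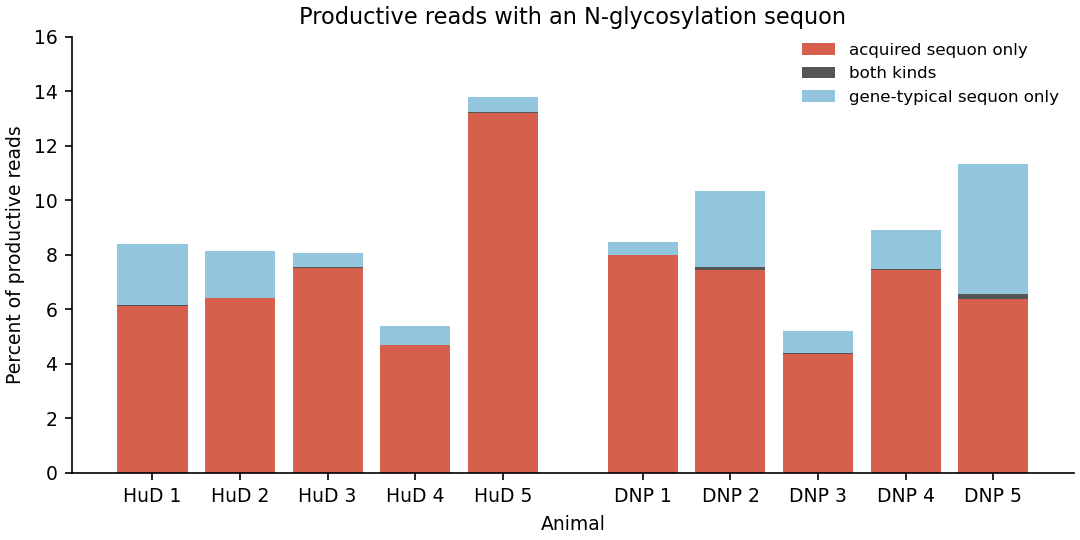
Percent of productive reads with an N-glycosylation sequon in each of the 5 HuD and 5 DNP animals, as stacked bars for reads with acquired sequons only, with both kinds and with gene-typical sequons only. HuD5 has the highest total at 13.8% and nearly all of it is acquired, whereas DNP5 has the largest gene-typical share.

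The gene-typical sequons rested on 1 gene. Of 5 sites past 50%, the site in the first column of FR3 of IGHV4-2 held 23964 of 23978 reads, while those of IGHV1-25, IGHV2-75, IGHV2S64 and IGHV3-8 had between 1 and 11 reads each. The IGHV4-2 site was in 53.0% of the 45207 reads of its gene, just inside the limit. The sites just outside it with at least 50 reads were those in FR3 column 3 of IGHV2-61 (30.5% of 164 reads) and of IGHV2S1 (28.6% of 657 reads). Gene-typical reads made up 2.27, 1.73, 0.571, 0.717 and 0.575% of productive reads in HuD1 to HuD5, against 0.481, 2.90, 0.834, 1.45 and 4.96% in DNP1 to DNP5. They were most frequent in DNP5 and DNP2, the animals that also used IGHV4-2 most (7.37 and 8.98% of productive reads). The means, 1.17 ± 0.780% in HuD animals and 2.12 ± 1.83% in DNP animals (SD, n = 5 each), overlapped (exact permutation test, p = 0.357).

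The IGHV4-2 tripeptide was followed by proline in 99.3% of the reads that held it, against 2.32% of the acquired sequons. If a proline just after the motif is also barred, the share of reads with any sequon is 7.40% in HuD animals and 6.69% in DNP animals, and almost no gene-typical read is left. Most of the sequons that met this stricter motif were therefore acquired ones.

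The reads of IGHV4-2 without the FR3 sequon made up 47.4, 38.7, 36.5, 54.0 and 42.3% of the gene's reads in HuD1 to HuD5, against 30.1, 67.8, 35.8, 38.0 and 32.7% in DNP1 to DNP5. DNP2 stood apart with the highest value, and the other 4 DNP animals lay in the lower part of the range. Absence of the sequon is called loss here, and a differing residue is called replaced. Neither word gives a direction of change, since no germline sequence was used. The mean loss was 43.8 ± 7.05% in HuD animals and 40.9 ± 15.3% in DNP animals (SD, n = 5 each, exact permutation test, p = 0.738). Without DNP2 the means were 43.8% in HuD animals and 34.2% in DNP animals (exact permutation test, p = 0.0476). This was the only omission of 1 animal that passed. Over all such omissions the unadjusted p ran between 0.0476 and 0.984 (exact permutation tests). In DNP2 the largest IGHV4-2 clonotype, with CDR3 akgpnyggwsdyfdy, had 2176 reads, 19.6% of the gene, of which 9.28% kept the sequon. A clonotype here is an IGHV gene with a CDR3, and such reads share their source. Without that clonotype 62.2% of the DNP2 reads still lacked the sequon, and with every clonotype weighted equally the loss was 60.7% in DNP2, against 32.6 to 40.8% in the other DNP animals.

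In reads without the sequon the tripeptide differed at either end. Counted from the N as position 1, T3I was found in 34.8% of the reads that lost the sequon and N1K in 29.2%. Threonine alone was replaced in 47.3% of the lost reads and asparagine alone in 37.4%. Among all IGHV4-2 reads NYT made up 39.5%, NYI 12.2% and NYS, which keeps the motif, 11.7%. N replacements prevailed in HuD1 (34.2% of the gene's reads, against 9.13% with T replaced), and T replacements in DNP2 (43.8%, against 16.1% with N replaced). Between 34.7 and 58.2% of the IGHV4-2 clonotypes with 2 or more reads held both forms in the same animal. Reads without the sequon also differed more from the gene consensus elsewhere in FR1 to FR3 than reads with it, by 6.34 ± 2.03 against 3.72 ± 0.890 residues (SD, n = 10), in 9 of 10 animals (exact sign-flip permutation test, p = 0.00391). They are picked for a departure from the consensus, which the reads with the sequon help to set. The test cannot separate the difference from this way of picking.

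**Figure D2:**
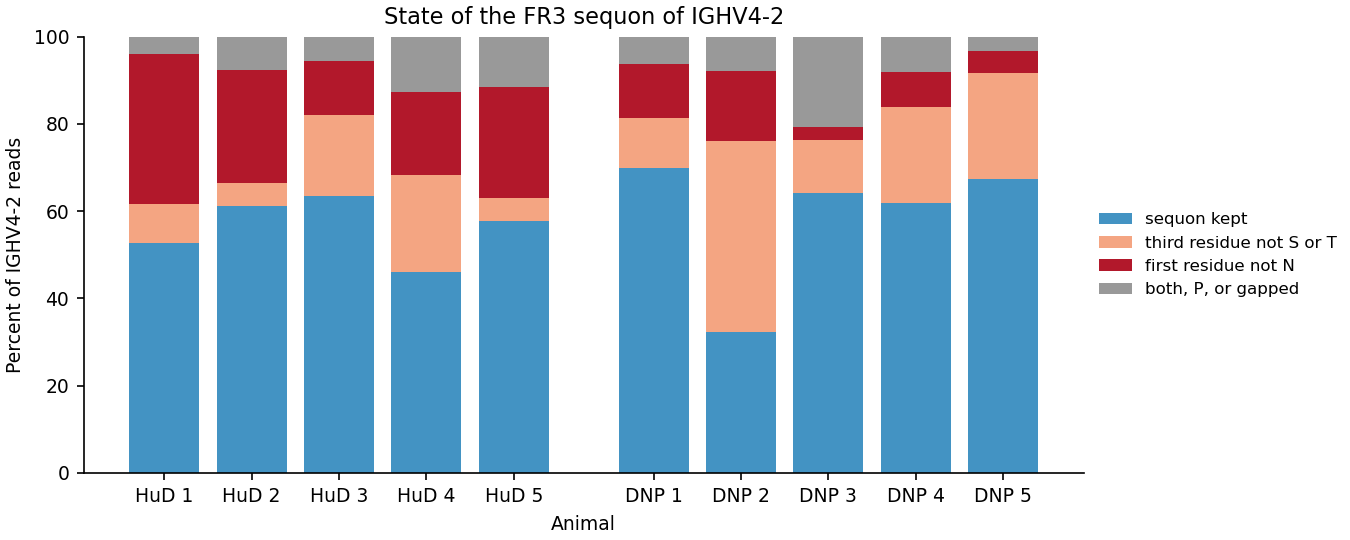
State of the FR3 tripeptide in IGHV4-2 reads of the 5 HuD and 5 DNP animals, as percent of the gene's reads: sequon kept, last residue not S or T, first residue not N, and both changed, P or a gap. DNP2 keeps the sequon in 32.2% of its IGHV4-2 reads, the lowest share, with most of its loss at the last residue.

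CDR2, an antigen-contacting loop encoded by the V gene, held more acquired sequons than any other segment. It held 45.1% of the 125167 acquired sequons, FR3 28.5%, CDR1 9.41%, CDR3 8.26%, FR1 5.91%, FR2 2.69% and FR4 0.121%. Without HuD5 the CDR2 share was 41.8% and that of FR3 29.4%. Over reads with 1 sequenced copy, CDR2 and FR3 held a sequon in 2.29 ± 1.57% and 2.20 ± 0.694% of reads (SD, n = 10), while over reads with 2 copies they stood at 12.6 ± 5.15% and 1.87 ± 0.998%. Per 1000 residues of the segment, CDR2 held 4.24 ± 2.52, CDR1 0.965 ± 0.387, FR3 0.545 ± 0.186, CDR3 0.516 ± 0.220, FR1 0.190 ± 0.115 and FR2 0.119 ± 0.0504 (SD, n = 10). The CDRs together held 1.69 ± 0.714 acquired sequons per 1000 residues and the frameworks 0.303 ± 0.0836, higher in the CDRs in 10 of 10 animals (exact sign-flip permutation test, p = 0.00195, the smallest it can give with 10 animals). None of the 7 segments differed between HuD and DNP animals after adjustment, and the smallest p was that of FR4 (149 reads in all) at 0.0238, or 0.167 adjusted (exact permutation tests, Benjamini-Hochberg over 7).

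Most acquired sequons were 1 residue away from the consensus of their gene. In FR1 to FR3, 90.2% needed a single exchange: N was gained in 65.1%, S or T in 24.4%, and a blocking P was lost in 0.784%. A further 8.94% needed both an N and an S or T. The most frequent single exchanges, named by the column of the segment, were S2N in CDR2 (15016 sequons, 5 genes), K19N in FR3 (11148 sequons, 24 genes), G7S in CDR2 (9583 sequons, IGHV5-31 only), A5T in FR3 (7682 sequons, 36 genes) and S8N in CDR2 (7365 sequons, 8 genes). K20N in FR1 gave 5497 sequons in 35 genes and D4N in CDR2 5187 sequons in 13 genes. Each of these 7 exchanges was seen in all 10 animals. The last residue of the motif was T in 31.1 ± 7.91% of the acquired sequons (SD, n = 10), and NYS (18.2%) and NST (13.1%) were the most frequent tripeptides.

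A proline stood in the way in some genes. IGHV3-1, IGHV3-3, IGHV3-4 and IGHV7-7 have N-P-S or N-P-T at FR3 column 3 in 90.5% of their 174084 reads, and 0.506% of the reads held a sequon at that column. Over all genes N-P-S or N-P-T was in 10.1% of productive reads, more than held a sequon.

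The acquired share varied between IGHV genes. Over the 55 genes with at least 1000 reads it ran between 1.65% in IGHV5-58 and 23.4% in IGHV5-36, with a median of 6.67%. The highest value rested on single animals: IGHV5-36 had a median of 3.57% over HuD animals (0 to 64.9%), 237 of its 461 acquired reads were at a site in HuD3 and 189 at one in HuD1, and the share was 16.1% without HuD1 and 36.8% without HuD4. Leaving out 1 animal moved 11 of the 55 genes by over 1.5 times, among them IGHV5-31 (11.2%, or 4.13% without HuD5) and IGHV2-13 (13.8%, or 6.80% without HuD5), and none of the subgroups. By subgroup it was 12.6% in IGHV3, 10.8% in IGHV2, 6.47% in IGHV5 and 1.99% in IGHV1. The IGHV3 value rested mostly on IGHV3-1 (17.6%), with 19455 of the 21713 acquired reads of the subgroup, while IGHV3-3 stood at 3.54%. The 10 genes with the most acquired reads, IGHV3-1, IGHV5-31, IGHV5-25, IGHV5-7, IGHV5-29, IGHV5-22, IGHV5S13, IGHV5-20, IGHV5S10 and IGHV2-1, held 68.95% of them. Several of these genes are close relatives, and 14.1% of productive reads name more than 1 IGHV gene, so a clone can be counted at the same column of more than 1 gene. The CDR3 atspgpnwfay, for instance, led the FR3 column 19 sites of IGHV5-25, IGHV5S13 and IGHV5-31 in DNP4.

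The site with the most reads was CDR2 column 2 of IGHV3-1, where S2N turned SYS into NYS. It was in 6.92, 22.9, 7.56, 3.40 and 7.23% of the gene's reads in HuD1 to HuD5, against 19.9, 17.8, 4.12, 12.4 and 1.25% in DNP1 to DNP5. All animals had it, spread over 2122 CDR3 sequences, and the groups overlapped. HuD2 was the highest, with 667 of its 2422 reads in the CDR3 tspplrsgfyyiey.

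CDR2 column 3 of IGHV5-31, the NAS site, was a feature of HuD5. It was in 0.0772, 0.0713, 1.19, 0.0781 and 35.0% of the gene's reads in HuD1 to HuD5, against 0.0162, 0.0668, 0.0533, 0.146 and 0.0246% in DNP1 to DNP5. HuD5 contributed 9281 of the 9585 reads. Its largest clonotype with an acquired sequon, CDR3 trgtyfrh, had 1873 of 2242 reads with one, 1783 of them at this site. In HuD3, the next highest animal, the CDR3 TRGGYFRY held 129 of the 233 reads with the site.

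IGHV2-1 carries an N in FR3 column 3, and A5T completed the motif in 91.9% of the reads with a sequon there. The share of the gene's reads was 7.93, 3.62, 19.2, 4.96 and 7.30% in HuD1 to HuD5, against 28.99, 1.25, 49.6, 2.92 and 1.89% in DNP1 to DNP5. The highest values, in DNP3 and DNP1, rested on 278 and 2070 reads of the gene, and the groups overlapped. The largest CDR3 held 115 of the 138 reads with the sequon in DNP3 and 71 of 82 in HuD3, against 174 of 600 in DNP1. A lysine at FR3 column 19, changed by K19N, gave NST or NNT sites in IGHV5-25, IGHV5S13 and IGHV5-31. These were in 0.120 to 2.42%, 0.0107 to 10.3% and 0.0492 to 4.10% of the reads of their genes, with HuD1 highest for IGHV5S13, HuD5 for IGHV5-31 and DNP4 for IGHV5-25.

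CDR1 column 3 of IGHV4-2 is a further case of an N already in the consensus, completed by N10S or N10T to NFS or NFT. It reached 9.52% of the gene's reads in DNP5 and 3.40% in HuD1, and lay between 0.0329 and 1.91% in the other 8 animals. The largest CDR3 held 194 of the 229 reads with the sequon in HuD1 and 153 of 643 in DNP5. The remaining named sites, CDR2 column 8 of IGHV5-7 and of IGHV5-29 (S8N) and CDR2 column 4 of IGHV5-7 (D4N), were in at most 4.10, 4.01 and 3.18% of the reads of their gene in any animal.

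**Figure D3:**
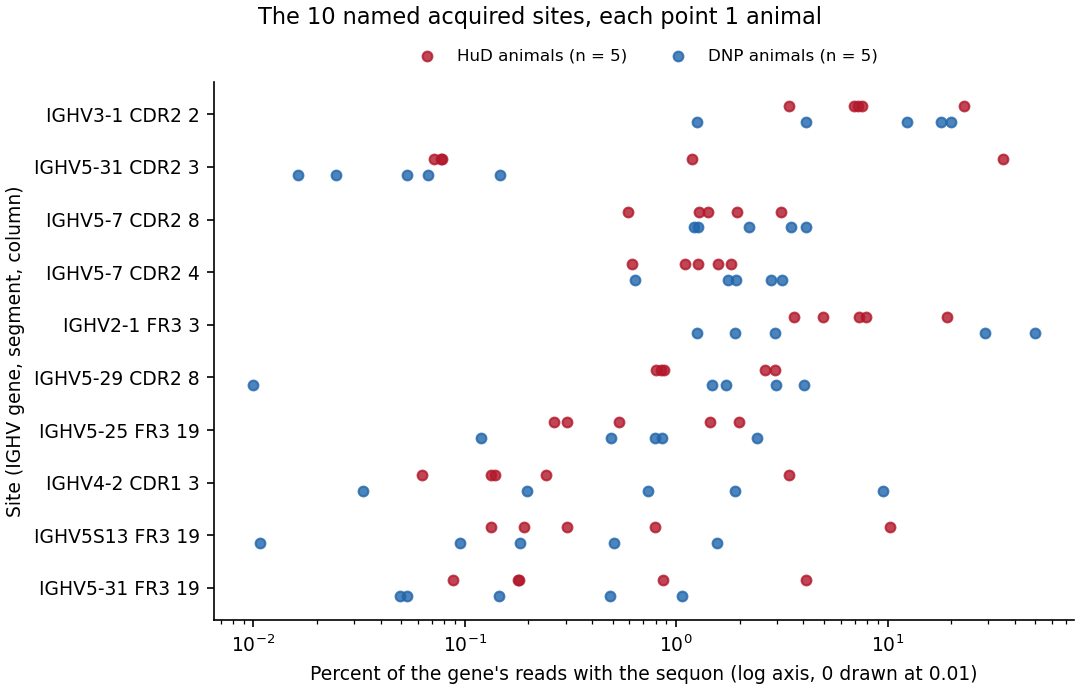
Percent of the gene's reads that hold the sequon (log axis, a value of 0 drawn at 0.01) at the 10 named acquired sites, with 1 point for each of the 5 HuD and 5 DNP animals. The groups overlap at every site, and the IGHV5-31 site in CDR2 column 3 has HuD5 at 35.0%, against at most 1.19% in any other animal.

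The clonotype with the most acquired reads differed between the animals. In HuD1 it was IGHV5S13 with CDR3 aihgglrnwfds (534 of 563 reads acquired, mostly srddaNNThylqm in FR3), and in HuD4 IGHV5-20 with the CDR3 sequon ttdNYSsytgyvmda in all 193 reads. In DNP2 it was IGHV3-1 with CDR3 ararqqspywyfdf (771 of 1073 reads, mostly wmgyiNYSgstgh in CDR2), and in DNP3 IGHV5S10 with CDR3 vthpswfgy (298 of 522 reads, mostly aasgfNFSdynma at CDR1). Of the 10 clonotypes, one per animal, 7 had no read in another animal and the other 3 had 2 or 3 reads elsewhere. They carried their sequon in 23.2 to 100% of their reads.

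Sites were compared between the antigens over the 199 sites with at least 100 reads, which hold 89.8% of the sequons. None passed an adjusted p of 0.05 in edgeR's quasi-likelihood test (0 of 199, or 0%), while 58 had an unadjusted p under 0.05. Of the same 199 sites DESeq2 called 20 and limma 3. The lowest adjusted p in edgeR (0.0682) belonged to FR1 column 20 of IGHV5-29, named here after its value was seen. It had 52, 236, 146, 162 and 73 reads in HuD1 to HuD5, against 1, 6, 0, 3 and 2 in DNP1 to DNP5. IGHV5-29 itself made up 8.66 to 19.5% of productive reads in HuD animals and 0.0379 to 6.14% in DNP animals. Within the gene the site was in 0.594 ± 0.338% of reads in HuD animals and 0.213 ± 0.227% in DNP animals (SD, n = 5 each, exact permutation test, p = 0.0556). The gene had 503, 7600, 23, 1510 and 339 reads in DNP1 to DNP5, so some of these shares are coarse. As the site was picked for its low p in the same animals, the within-gene test is not independent of that choice.

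The share with an acquired sequon moved with the number of sequenced copies behind a read, which the files give for each sequence. Of the productive reads, 84.0% had 1 copy, 7.68% had 2 and 3.25% had 3. Acquired sequons were in 18.2 ± 6.21% of the reads with 2 copies, against 6.20 ± 2.00% of those with 1 copy (SD, n = 10), higher in 10 of 10 animals (exact sign-flip permutation test, p = 0.00195). Reads with 2 copies also exceeded those with 3, at 8.47 ± 4.14%, in 10 of 10 animals (exact sign-flip permutation test, p = 0.00195). Reads with 4 copies had 10.8 ± 6.13%, higher than those with 3 in 8 of 10 animals (exact sign-flip test, p = 0.0117). Reads with 3 copies did not pass against those with 1 (exact sign-flip test, p = 0.0508). In all, 19.5% of the reads with an acquired sequon had 2 copies. These tests were added after the data were seen.

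**Figure D4:**
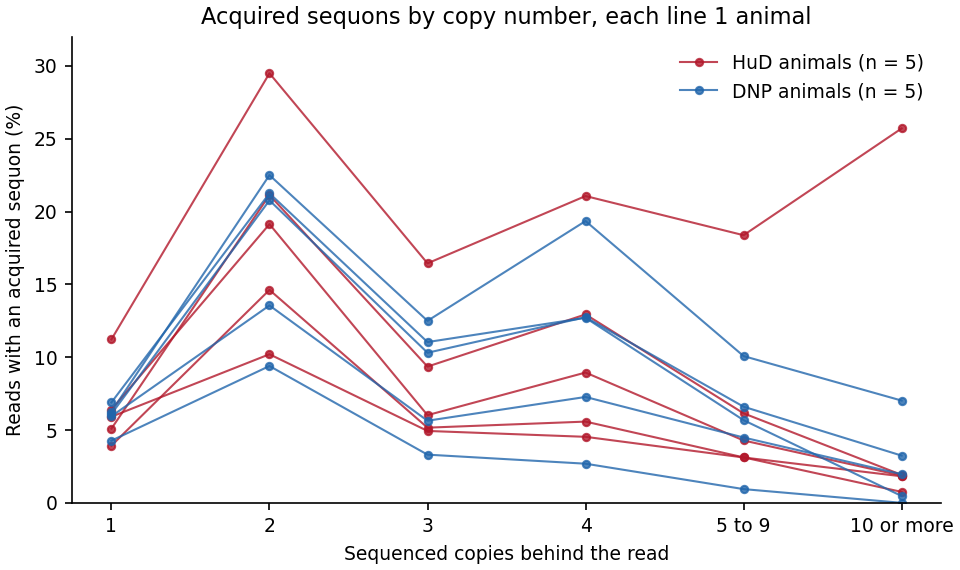
Percent of productive reads with an acquired sequon by the number of sequenced copies behind the read, with 1 line for each of the 5 HuD and 5 DNP animals. All 10 lines peak at 2 copies relative to 1 and 3 copies, with means of 18.2, 6.20 and 8.47%, and HuD5 is high again at 10 or more copies.

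The excess at 2 copies differed between columns. CDR2 column 4 held a sequon in 5.17 ± 2.29% of the reads with 2 copies and in 0.151 ± 0.199% of those with 1 copy (SD, n = 10), and FR2 column 17 in 1.77 ± 1.00% and 0.0430 ± 0.0387%. CDR2 column 8 stood at 3.27 ± 1.497% with 2 copies and at 0.502 ± 0.180% with 1 copy, and CDR1 column 11 at 0.857 ± 1.24% and 0.0852 ± 0.0633%. All 4 were higher with 2 copies in 10 of 10 animals. FR3 column 19 (0.418 ± 0.480% with 2 copies and 0.623 ± 0.475% with 1 copy) and FR1 column 20 (0.0861 ± 0.117% and 0.427 ± 0.334%) were higher with 2 copies in 0 of 10 animals. Reads with 2 copies made up 67.0% of the acquired sequons at CDR2 column 4 and 71.8% of those at FR2 column 17.

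**Figure D5:**
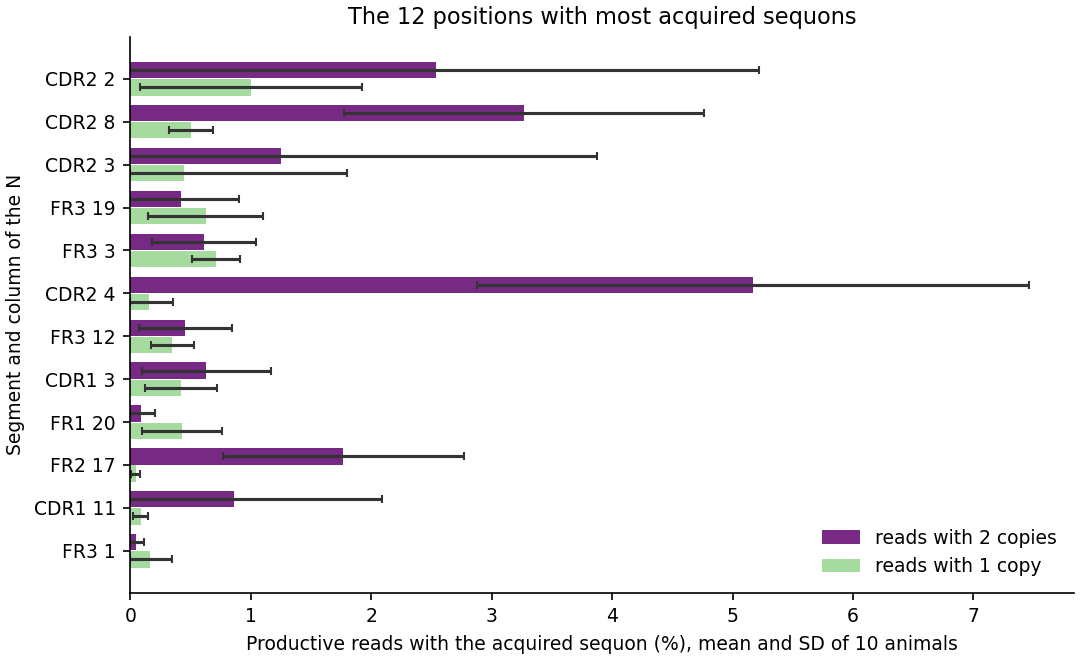
Percent of productive reads with an acquired sequon at the 12 positions of FR1 to FR3 with most of them, for reads with 2 copies and reads with 1 copy (bars, mean of 10 animals, error bars SD, cut at 0). CDR2 column 4 shows the widest gap, 5.17% with 2 copies and 0.151% with 1 copy, while FR3 column 19 and FR1 column 20 are lower with 2 copies.

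Among 31 genes with at least 500 reads of each kind, 28 had a higher acquired share with 2 copies, and the median was 16.4% with 2 copies and 5.42% with 1 copy. The rise was not particular to asparagine. Of 204 kinds of exchange against the consensus, those leading to N were 2.80 times as frequent with 2 copies as with 1 in the median, those to I 1.91 times and those to K 1.89 times, while those to A and P were 0.310 and 0.278 times as frequent. The median over all 204 was 0.643. N, I and K are encoded by codons rich in A or T, and A and P by codons rich in G or C. Whether the collapsing of tags has a part in this was not tested.

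The named sites differed in this respect. The NYS site of IGHV3-1 was in 21.4% of the gene's reads with 2 copies, in 16.6% with 3 and in 12.5% with 1 copy. The D4N site of IGHV5-7 was in 14.4% with 2 copies, 1.21% with 3 and 0.161% with 1 copy. The NAS site of IGHV5-31 was in 27.8% of the gene's reads with 10 or more copies and 5.43% with 1 copy, and the K19N site of IGHV5-25 in 0.667% with 2 copies and 1.22% with 1 copy. All these site shares pool the reads of the 10 animals, and HuD5 gave 9281 of the 9585 reads with the NAS site. Over reads with 1 copy only, the acquired share was 6.51% in HuD animals and 5.90% in DNP animals (exact permutation test, p = 0.802). CDRs held 1.27 and frameworks 0.310 acquired sequons per 1000 residues in those reads, higher in the CDRs in 10 of 10 animals (exact sign-flip test, p = 0.00195).

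Unproductive reads, which have a frameshift or stop and are not expressed as antibody, allow a comparison in the same animals. FR1 to FR3 could be read in 58990 of 136842 unproductive reads. Acquired sequons in FR1 to FR3 were in 6.62 ± 2.34% of productive reads and 12.8 ± 2.62% of unproductive reads (SD, n = 10), lower in productive reads in 10 of 10 animals (exact sign-flip permutation test, p = 0.00195). Reads with 2 copies made up 7.72% of the productive and 30.3% of the unproductive reads, in the means over animals. Over reads with 1 copy the shares were 5.65 ± 1.94% in productive and 6.25 ± 2.11% in unproductive reads, higher in productive reads in 4 of 10 animals (exact sign-flip test, p = 0.283). Over reads with 2 copies they were 17.5 ± 6.18% and 26.2 ± 5.54%, lower in productive reads in 10 of 10 animals (exact sign-flip test, p = 0.00195). Most of that gap was at CDR2 column 4, with 5.17 ± 2.29% of productive and 13.1 ± 4.54% of unproductive reads of 2 copies. At 1 copy, that column held sequons in 0.151 and 0.153% of them. The difference over all reads was thus not detected among the reads with 1 copy.

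By the mean share of reads, expanded clonotypes held slightly more acquired sequons, and this depended on which reads were counted. The mean share of reads with one, taken per clonotype, was 7.14 ± 1.80% in clonotypes of at least 10 reads and 6.20 ± 1.37% in those of 1 read (SD, n = 10), higher in 9 of 10 animals (exact sign-flip permutation test, p = 0.0234). In DNP3 the difference was -1.43 percentage points. The share was 6.20% at 1 read, 6.69% at 2 to 9 reads, 7.07% at 10 to 99 and 8.03% at 100 or more. Reads with 2 copies made up 9.60 ± 0.990% of the reads in expanded clonotypes and 3.48 ± 0.688% of the single reads. Over reads with 1 copy, with clonotype sizes recounted among them, the difference was 0.961 percentage points (exact sign-flip test, p = 0.0156). Over reads with at least 2 copies, with sizes recounted likewise, it was -2.48 (exact sign-flip test, p = 0.0684). A clonotype single or expanded in these subsets need not be so over all reads. For CDR3 sequons alone, over all reads, the difference was -0.168 (exact sign-flip test, p = 0.123). Compared within IGHV genes it was 0.558 percentage points, in 7 of 10 animals (exact sign-flip test, p = 0.123).

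Large clonotypes mixed reads with and without a sequon. Of 1867 clonotypes with at least 100 reads, 211 had no acquired sequon, 1556 had one in some but under 50% of their reads, 100 in at least 50% and 33 in at least 90%. At least 50% of reads with a sequon were thus found in 5.36% of these clonotypes. As a mean over animals, that call was met by 6.20% of single reads, 7.06% of the clonotypes of 2 to 9 reads, 4.45% of those of 10 to 99 reads and 5.23% of those of 100 or more, with no test run.

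Reads with an acquired sequon in FR1 to FR3 also carried more other differences from the gene consensus. Outside the sequon they differed at 7.52 ± 0.823 residues, and the other reads of the same gene and animal at 6.81 ± 0.849 (SD, n = 10), more in 10 of 10 animals (exact sign-flip permutation test, p = 0.00195). Restricted to genes with at least 100 reads of each kind the difference was 0.460 residues, in 9 of 10 animals (exact sign-flip test, p = 0.0625). Reads with an acquired sequon are nearly all picked by a departure from this consensus, so they lean towards reads with more exchanges. These tests cannot separate the difference from this way of picking.

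Sequons in CDR3, the loop built at the V-D-J junction, were held by 10330 reads with 1879 CDR3 sequences. In a count of each CDR3 once per animal, 0.831 ± 0.144% had one (SD, n = 10), and these were longer than the rest, 13.1 ± 0.521 against 12.1 ± 0.318 residues, in 10 of 10 animals (exact sign-flip permutation test, p = 0.00195). A longer CDR3 has more places for a tripeptide, so sequences picked for holding one lean towards greater length. The test cannot separate the length difference from this way of picking. By CDR3 sequence, NYS was in 28.8% of the 1879, NNS in 12.8%, NSS in 9.37% and NVT in 1.81%. By reads NYS made up 39.9% of the CDR3 sequons, NSS 15.5% and NVT 13.3%, the last mostly from 1 CDR3 of 1 HuD animal with 1309 reads. The gene IGHD1-2 was assigned to 36.0% of the reads with a CDR3 sequon and to 9.38% of all productive reads, and IGHD1-10 to 13.2 and 3.29%. These are shares of pooled reads, in which single large CDR3s weigh heavily. IGHD1-10 had 1367 reads with a CDR3 sequon in all. The D genes were not counted by CDR3 sequence or by animal.

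CDR3 sequences were nearly all private, with or without a sequon. Those with a sequon were longer, and the shares given next were not matched for length. The paper reports that shared CDR3s were shorter than CDR3s in all. In 2 or more animals 9 sequences with a sequon (0.479%) were found, against 2.44% of all 215200 CDR3 sequences. The one in the most animals, arhgiyNNSgwfay, had 3, 2 and 1 reads in HuD1, HuD2 and HuD4 and none in DNP animals. The other 8 were in 2 animals each: 5 in DNP animals only, 2 in HuD animals only and 1 in an animal of each group. The 4 of them with the most reads were as follows.
trdNYSsympyyyamda: 530 reads in DNP4 and 1 in DNP3
vrwNNSgyyfdy: 50 reads in DNP5 and 5 in DNP3
arwNNSgyyfdy: 37 reads in DNP3 and 1 in DNP5
arrdnNYSfdy: 3 reads in DNP3 and 1 in DNP5
The 2 that read rwNNSgyyfdy after their first residue differ in that residue only and were found in the same pair of animals. By reads, arhNVTtgdyfdy led with 1309 reads, all from 1 HuD animal, and tsdslNSSsfvy followed with 892 reads, all from 1 DNP animal. Reads of arhNVTtgdyfdy were assigned to 25 IGHV genes and those of tsdslNSSsfvy to 30, so a CDR3 can be split over several clonotypes.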

How the data were processed

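Heavy chain variable domains were measured in 10 rats with 1 library each, and all libraries shared a single MiSeq run. The authors merged read pairs with PEAR, collapsed them with MIGEC by the tag plus a 10-base CDR3 section at a minimum UMI count of 1, and annotated them with High-VQuest. The sources used here give neither tool versions nor the germline release. The deposited files give gapped amino acid segments and, beside each sequence, the count of sequenced copies. The authors found the tag too short, so distinct molecules can share a tag, and an error in a single copy is not corrected. Reads were tallied from lines, with a productive total of 60647 to 259834 per animal. Where several IGHV genes were named, the first was used.

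Groups came from the sample titles. The members, lists and settings were chosen with earlier results of these data known, and the copy-number, IGHV4-2 difference and CDR3 length tests and the values by gene or segment without single animals, or without the largest IGHV4-2 clonotype, were added after the data were seen. Named were up to 15 gene-typical sites by reads, up to 10 acquired sites present in 8 animals by mean share, sites past the threshold, the top clonotype per animal, 5 CDR3 sequons by animals and the 10 genes with most acquired reads. Differences between antigens were tested by exact permutation (two-sided, smallest p 0.00794), and within animals by exact sign-flips (smallest p 0.00195). Sites were tested with edgeR 4.0.16, with limma 3.58.1 on log2(RPM + 10) and DESeq2 1.42.0 as alternatives, in R 4.3.3. Other steps used Python 3.11.15 and pandas 2.3.3. The motif finder and tests were tested on simulated data.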

Additional observations from a re-analysis of the deposited data

Results flagged for a closer look

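In 52 checks of 5 animals each, 11 had 1 animal apart from the other 4 by a Dixon ratio above 0.71. For a single group not picked by its values, chance gives this in about 1 of 20 cases. That rate does not apply to these checks as a set. Several of the shares overlap, and the named sites were picked by a mean share that 1 high animal can raise. The loss of the IGHV4-2 sequon was 67.8% in DNP2 and 30.1 to 38.0% in the other DNP animals. The acquired share in FR1 was 1.15% in DNP5 and 0.151 to 0.286% in the other DNP animals. The acquired share in expanded clonotypes was 4.87% in DNP3, the smallest library, and 7.30 to 7.64% in the other DNP animals. The acquired share in CDR2 was 7.68% in HuD5, against 1.48 to 3.10% in the other HuD animals.

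The other 7 were single sites, as percent of the reads of the gene. HuD5 stood apart at IGHV5-31 CDR2 column 3 with 35.0% and at IGHV5-31 FR3 column 19 with 4.10%. HuD1 stood apart at IGHV5S13 FR3 column 19 with 10.3% and at IGHV4-2 CDR1 column 3 with 3.40%, where DNP5 also did with 9.52%. HuD2 stood apart at IGHV3-1 CDR2 column 2 with 22.9% and HuD3 at IGHV2-1 FR3 column 3 with 19.2%. The largest CDR3 gave 86.6% of the reads with the sequon in HuD3 at IGHV2-1 and 84.7% in HuD1 at IGHV4-2. It gave 64.9% in HuD5 at IGHV5-31 FR3 column 19 and 50.5% in HuD1 at IGHV5S13. For the rest of these sites it gave 20.1 to 27.5%. The effects within animals (CDRs against frameworks, expanded against single reads, productive against unproductive reads, consensus differences) did not pass a test of the difference between HuD and DNP animals.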

How the results depend on the processing

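No difference between HuD and DNP animals in a share or in loss passed its threshold under the alternatives that kept all animals, and the small ones changed sign. The difference in acquired share was -0.0445 percentage points over clonotypes, -0.0969 with gene-typical at 75% and -0.918 as a mean within 24 IGHV genes (added after seeing the data). The difference in any sequon was 0.7098 with a following proline barred, and that in gene-typical share was 9.64e-05 at 75%, where IGHV4-2 is no longer gene-typical and loss could not be computed. By segment, CDR1 turned to 0.548 with at least 2 copies, FR1 to -0.0274 over clonotypes, FR3 to -0.444 at 75% and FR2 to 0.0160 over reads with 1 copy.

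Leaving out 1 animal, the differences ranged between -1.35 and 0.743 for any sequon, -1.36 and -0.243 for gene-typical, -0.605 and 1.53 for acquired and 0.189 and 9.61 for loss. By segment they ranged between -0.128 and 0.0849 in CDR1, -0.792 and 0.758 in CDR2, -0.162 and 0.0392 in CDR3, and -0.0544 and 0.00332 in FR2. The number of sites called ranged between 0 and 2, the latter of 187 tested without DNP2.

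Sites called in edgeR numbered 3 of 56 tested at a minimum of 500 reads, 29 of 1768 with no minimum and 1 of 174 over reads that name 1 gene. At the minimum of 100 reads, DESeq2 called 20 of 199 and limma 3 of 199. Expanded minus single was -0.168 for CDR3 sequons, -2.48 over reads with at least 2 copies (clonotype sizes recounted among them) and 0.558 within genes. Productive minus unproductive was -0.602 over reads with 1 copy, and the consensus difference was 0.460 at 100 reads of each kind.

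Same-numbered animals are different animals, with correlations of deviations between -0.152 and 0.0846. With the number as a block, the differences were -0.0968 for any sequon (exact sign-flip over 5 pairs, p = 0.938), 0.801 for acquired (p = 0.688 in the same exact test), and 0 sites were called. The block changed no call. Sites of few reads limit the site test, and pooled shares weigh large clonotypes.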
